A study of Mus musculus with 4 samples.

Results

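The genes described here are 8 secreted adipokines and vascular factors of 3T3-L1 cells, namely Agt, Adm, Angptl2, Angptl4, Serpinf1, Vegfa, Nampt and Metrnl. They were selected by symbol from the 16051 genes of the table, as a group chosen with the risperidone contrast of these same libraries already known, so their values are given as a description and carry no p. 3T3-L1 is a mouse embryonic fibroblast line of NIH Swiss origin that can be turned into fat-storing cells in culture, and risperidone is an antipsychotic drug whose use is accompanied by weight gain. Differentiated 3T3-L1 cells had received DMSO, the solvent, or 100 μM risperidone for 48 h, and messenger RNA was sequenced in 2 libraries per treatment. The control is labelled untreated and is called DMSO in the study's methods, the extraction label names retina, and the description in the methods was followed. Both groups are the same wild-type line with no transgene, and RNA of 3 cultures went into every library, so the variation seen here lies between pools and not between single cultures.

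Adipose cells release proteins that act on vessels, appetite, inflammation and lipid storage. Angiotensinogen, the product of Agt, is cut by renin and then by angiotensin-converting enzyme into angiotensin II, which raises vascular tone. VEGF-A starts the growth of new vessels through tyrosine kinase receptors on endothelium, PEDF, the product of Serpinf1, restrains that growth, and the angiopoietin-like proteins link vessels to inflammation and to lipoprotein lipase.

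The libraries held 15883712 to 16374119 estimated counts on 13810 to 14657 genes, and a count of 0 allows up to 3 counts, or 0.183 to 0.189 CPM (counts scaled to library depth). Of 14 adipocyte markers, 6 reached a mean of 1 FPKM (fragments per kilobase of transcript, scaled to library depth), namely Lpl, Fabp4, Pnpla2, Cd36, Pparg and Lipe, and their list summed to 441 and 498 FPKM with DMSO and to 332 and 342 FPKM with risperidone. The defining mature markers were at or near 0, with 0 or 1 count of Adipoq, 0 or 1 count of Lep and 1 to 14 counts of Plin1 per library, so the label of adipocytes was not borne out by these genes. The 10 preadipocyte markers summed to 1345 and 1372 FPKM with DMSO and to 1671 and 1685 FPKM with risperidone, but they did not move together, since means went from 374 to 694 FPKM for Col1a1, from 31.6 to 82.5 for Dlk1 and from 36.3 to 70.4 for Thy1, and from 107 to 51.5 for Col3a1 and from 21.0 to 13.9 for Pdgfrb. Endothelial markers summed to 0.20 to 1.23 FPKM, none of the 9 in the table reaching a mean of 1 FPKM, and retinal markers summed to 0.86 to 1.28 FPKM. The second risperidone library stood apart, since its 15 kidney markers summed to 216 FPKM against 2.29 to 3.21 FPKM in the other libraries, and values without it are therefore given for each of the 8 genes.

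Fold changes were fitted with edgeR on the counts with TMM scaling (trimmed mean of M-values, which assumes that most genes are not changed) over the 10243 genes whose mean reached 1 FPKM. A gene was called at an adjusted p under 0.05, and the calls covered 32.1% of these genes as higher and 32.2% as lower with risperidone. Of the 8 secreted factors, all of which were tested, 2 were called higher, Angptl2 and Vegfa, 2 were called lower, Agt and Angptl4, and 4 were not called, beside those shares of 32.1% and 32.2%. In FPKM, both risperidone libraries lay above both DMSO libraries for 2 of the 8 and below them for 5, where the shares of all genes tested were 32.4% and 49.8%. Nothing is read from these counts, nor from any threshold given below for one of the 8, because the genes were chosen on the same contrast. The lists of other genes below were also written with earlier results of these data known. Many genes named from them are those with the largest changes. Their counts and p-values are therefore a description and not a neutral background. The scale matters for small differences, since the log2 fold changes of all genes tested had a median of 0.00044 with TMM, of -0.08 on log2(FPKM + 1) and of -0.22 on log2(TPM + 1), TPM being transcript shares scaled to the same sum in every library.

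Agt, the only known source of the angiotensin peptides, differed most. It stood at 623 and 648 FPKM in the DMSO libraries, from 17377 and 17561 counts, and at 95.7 and 111.5 FPKM in the risperidone libraries, from 2655 and 3051 counts. Both risperidone libraries were far below both DMSO libraries, and the gap between treatments was many times the gap within either. The means were 636 ± 17.8 and 104 ± 11.2 FPKM (SD, n = 2 libraries each), the fitted log2 fold change was -2.52 with a standard error of 0.0685, which is 5.74-fold lower and the 16th lowest of the 10243 genes tested. Its place by FPKM among the 16051 genes went from 116 with DMSO to 706 with risperidone. The log2 fold change was -2.63 without the second risperidone library and -2.76 in TPM. In bulk RNA, fewer cells that make a transcript and less of it per cell cannot be told apart, and this holds for each gene described here. Agt lies at chr8:124556587-124569706 on the minus strand (GRCm38.p6, RefSeq).

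**Figure D1:**
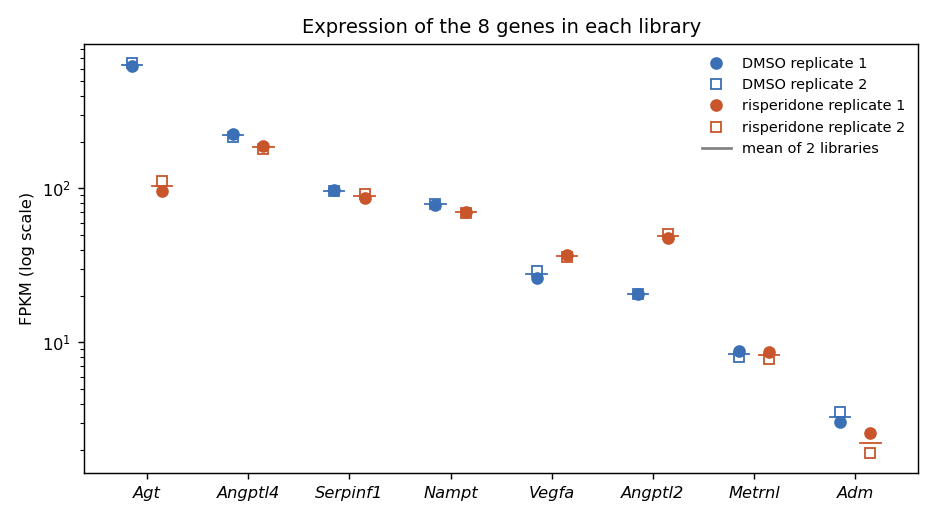
FPKM on a log scale for the 8 genes in each of the 4 libraries, DMSO in blue and risperidone in orange, replicate 1 filled and replicate 2 open, with a line at the mean of 2 libraries. Agt is at 623 and 648 with DMSO and 95.7 and 111.5 FPKM with risperidone, Angptl2 sits at 20.7 and 20.8 against 47.9 and 50.8 FPKM, and Metrnl is the gene whose treatments overlap.

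The sequences just upstream of the start sites are shown for the 3 genes whose fitted change was largest beyond its error, Agt, Angptl2 and Vegfa, and for Serpinf1, whose level was nearly the same in both treatments, so that their motif content can be set side by side. Each is the 250 bases before the start in the RefSeq promoter table (GRCm38.p6), written 5′ to 3′ on the strand of the gene, and capitals mark every match, on either strand, to a set of short motifs. The hypoxia core was searched as ACGTG, the STAT site as TTCNNNGAA, the AP-1 site as TGANTCA, the NF-Y site as CCAAT, the TATA box as TATAAA, the cyclic AMP response element as TGACGTCA, one NF-kB form as GGNNTTTCC, one C/EBP form as TTGCNNAA and the GC box as GGGCGG. The windows are chr8:124569707-124569956 on the minus strand for Agt, chr2:33215711-33215960 on the plus strand for Angptl2, whose last 10 bases lie inside the span RefSeq gives the gene, chr17:46032378-46032627 on the minus strand for Vegfa and chr11:75422624-75422873 on the minus strand for Serpinf1.
Agt: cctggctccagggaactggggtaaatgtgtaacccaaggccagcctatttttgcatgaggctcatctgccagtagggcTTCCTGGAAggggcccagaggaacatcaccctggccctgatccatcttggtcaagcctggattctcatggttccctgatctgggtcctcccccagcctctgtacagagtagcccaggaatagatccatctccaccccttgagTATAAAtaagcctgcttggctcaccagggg
Angptl2: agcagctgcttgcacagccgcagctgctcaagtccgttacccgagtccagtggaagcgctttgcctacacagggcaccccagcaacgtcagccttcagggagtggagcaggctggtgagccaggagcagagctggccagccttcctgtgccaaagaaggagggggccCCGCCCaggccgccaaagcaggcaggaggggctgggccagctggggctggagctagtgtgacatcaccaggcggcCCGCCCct
Vegfa: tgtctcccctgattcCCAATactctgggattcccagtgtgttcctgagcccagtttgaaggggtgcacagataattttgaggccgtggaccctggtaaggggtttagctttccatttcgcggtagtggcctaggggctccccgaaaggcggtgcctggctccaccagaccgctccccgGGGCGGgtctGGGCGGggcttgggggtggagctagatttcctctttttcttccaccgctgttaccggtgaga
Serpinf1: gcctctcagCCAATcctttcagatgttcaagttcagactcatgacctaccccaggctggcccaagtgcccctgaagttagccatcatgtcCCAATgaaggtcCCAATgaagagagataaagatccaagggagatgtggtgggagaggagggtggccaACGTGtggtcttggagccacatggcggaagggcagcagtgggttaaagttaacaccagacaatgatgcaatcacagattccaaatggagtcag

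In the Agt window the STAT letters matched from 172 to 164 bases before the start and the TATA box from 30 to 25 bases before it. These were the only matches of either motif among the 8 promoters that the table holds for 7 of the genes, 2 of them for Vegfa, and among all 32851 promoters of the table the 300-base windows held the STAT letters in 8.30% and the TATA box in 13.6%. Angptl2 held 2 GC boxes, and the first Vegfa promoter held the NF-Y letters once and the GC box 2 times. Serpinf1 held the NF-Y letters 3 times and the hypoxia core once. Over the 8 promoters, the GC box was in 6, the NF-Y letters in 3 and the hypoxia core in 3, against 35.7%, 37.4% and 19.6% of all promoters, and the AP-1, cyclic AMP, NF-kB and C/EBP letters were in 0, against 7.81%, 1.79%, 5.82% and 10.8%. The guanine and cytosine content of the windows of Agt, Angptl2, Vegfa and Serpinf1 was 55.6%, 66.8%, 59.2% and 51.6%, beside a median of 52.4% over the table. Such a match is a stretch of letters, not a site shown to be bound.

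The other genes of the renin-angiotensin system were taken from a list of 22, of which 10 were tested. In the quasi-likelihood test of edgeR, adjusted after Benjamini and Hochberg, 3 rose, 5 fell and 2 did not pass, beside 32.1% and 32.2% of all genes tested, with a median log2 fold change of -0.13. The count lower was 3 with DESeq2 and with the length and GC offsets, and the count higher was 1 in TPM. The enzymes that act in turn on the Agt product were scarcely present in the cells' own RNA, since Ren1 and Ace reached at most 0.24 and 0.33 FPKM in any library, and the highest value of each was in the second risperidone library. The receptor gene Agtr1a had 0 counts in 3 libraries and 8 counts in that same library, and Mas1, which encodes the receptor of angiotensin-(1-7), stood at 0.03 to 0.07 FPKM. Among the listed genes that were measured, Atp6ap2, which encodes the prorenin receptor and a subunit of the vacuolar proton pump, rose (log2 fold change 0.36, edgeR adjusted p 4.18e-05), although it did not pass in TPM. Agtrap, whose product holds the angiotensin receptor inside the cell, fell (-0.39, edgeR adjusted p 0.000293). Lnpep, the insulin-regulated aminopeptidase that also binds angiotensin IV, fell by 0.86 on the log2 scale (edgeR adjusted p 1.35e-05), and Ctsd, a lysosomal protease, rose by 0.41 on that scale (edgeR adjusted p 3.91e-05).

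Angptl2, a secreted glycoprotein that acts on integrins and has been tied to adipose inflammation, was higher with risperidone. It stood at 20.7 and 20.8 FPKM with DMSO, from 1123 and 1092 counts, and at 47.9 and 50.8 FPKM with risperidone, from 2584 and 2697 counts. The 2 DMSO libraries were almost equal, and both risperidone libraries were more than 2 times as high. The means were 20.7 ± 0.0212 and 49.4 ± 2.08 FPKM (SD, n = 2 each), and the fitted log2 fold change was 1.35 with a standard error of 0.0503, which is 2.54-fold higher and the 130th highest of the 10243 genes. It was 1.31 without the second risperidone library and 1.09 in TPM, and its place by FPKM went from 3988 to 1660. Angptl2 (chr2:33215951-33247725, plus strand) lies within the span of Ralgps1, which had 350 and 284 counts with DMSO and 197 and 213 with risperidone, lower where Angptl2 was higher. Whether the counting used strand is not given in the sources used here, and the part of Ralgps1 in the Angptl2 values was not tested.

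Angptl4, an inhibitor of lipoprotein lipase that fatty acids, fasting and low oxygen induce, was among the abundant transcripts in both treatments. It stood at 226 and 217 FPKM with DMSO, from 6547 and 6087 counts, and at 189 and 181 FPKM with risperidone, from 5446 and 5126 counts. Both risperidone libraries were below both DMSO libraries, by more than the libraries of either treatment differed from each other. The fitted log2 fold change was -0.16 with a standard error of 0.0502, or 1.12-fold lower, and -0.12 without the second risperidone library. It stayed below 0 in all 14 alternatives, between -0.40 and -0.12, and lost its call only without the first DMSO library, at -0.13. Its target Lpl, the lipase itself, stood at 234 and 250 FPKM with DMSO and at 192 and 191 FPKM with risperidone (log2 fold change -0.24, edgeR adjusted p 0.00154). Within a library the ratio of Angptl4 to Lpl in FPKM was 0.966 and 0.865 with DMSO and 0.985 and 0.946 with risperidone, so the DMSO values spread more widely than the treatments differed. The ratio of Angptl2 to Angptl4, the 2 angiopoietin-like genes of the group, was 0.0916 and 0.0958 with DMSO and 0.253 and 0.282 with risperidone. Angptl4 (chr17:33774900-33781575, minus strand) had no promoter to show.

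The list of angiopoietins, angiopoietin-like proteins, their receptors, the proteases that cut them and the lipases they act on, with the partners of those lipases, held 27 further genes, of which 11 were tested, 4 rose, 4 fell and 3 did not pass, beside 32.1% and 32.2% of all genes tested, with a median log2 fold change of 0.01. The count higher was 2 on log2(FPKM + 0.1) and in TPM. Angpt1, a ligand that steadies vessels through the Tie2 receptor, fell from 17.2 and 18.5 to 10.4 and 11.7 FPKM (log2 fold change -0.59, edgeR adjusted p 3.82e-05). Angpt4, another ligand of that receptor, rose from 5.12 and 5.77 to 10.7 and 10.2 FPKM (1.04, edgeR adjusted p 4.76e-05). The integrin gene Itga5, whose product pairs with integrin beta 1 as a receptor of the Angptl2 protein, rose from 70.7 and 67.2 to 120 and 121 FPKM (0.90, edgeR adjusted p 1.26e-07). Its partner Itgb1 rose by 0.17 on the log2 scale (edgeR adjusted p 0.00952), but the value was -0.07 in TPM and did not pass in 6 of the 14 alternatives, among them the fits without the first and without the second DMSO library (0.20 and 0.14). Itgav, with a log2 fold change of -0.05, did not pass (edgeR adjusted p 0.407), although it was called lower with library size alone and in TPM, down to -0.28. Furin and Pcsk7, proprotein convertases that can cut angiopoietin-like proteins, fell by 0.41 and 0.50 on the log2 scale (edgeR adjusted p 2.02e-05 and 4.87e-05).

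Vegfa was higher with risperidone by a smaller amount. It stood at 26.3 and 28.9 FPKM with DMSO, from 1324 and 1402 counts, and at 36.9 and 35.7 FPKM with risperidone, from 1866 and 1745 counts. The treatments did not overlap, and the distance from the higher DMSO library to the lower risperidone library was larger than the distance between the DMSO libraries. The means were 27.6 ± 1.84 and 36.3 ± 0.834 FPKM (SD, n = 2 each), with a fitted log2 fold change of 0.50 and a standard error of 0.0582, or 1.41-fold higher. The value was 0.54 without the second risperidone library, 0.44 to 0.56 over the fits that left out 1 library, and 0.25 in TPM. Vegfa (chr17:46016993-46032377, minus strand) moved from place 3116 to place 2312 by FPKM.

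Of the 14 further genes in the VEGF list, 8 were tested, of which 3 rose, 3 fell and 2 did not pass, beside 32.1% and 32.2% of all genes tested, with a median log2 fold change of 0.04. Vegfb, a relative that binds VEGF receptor 1, rose from 28.5 and 28.9 to 44.6 and 41.2 FPKM (log2 fold change 0.69, edgeR adjusted p 3.77e-06), and the ratio of Vegfa to Vegfb within a library was 0.925 and 1.002 with DMSO and 0.826 and 0.866 with risperidone. The lymphatic ligands went the other way, Vegfd falling from 59.2 and 56.4 to 36.8 and 40.4 FPKM (-0.48, edgeR adjusted p 9.89e-05) and Vegfc from 16.4 and 15.9 to 12.4 and 13.0 FPKM (-0.25, edgeR adjusted p 0.00871). Vegfc was not called with DESeq2 (-0.25), without the first DMSO library (-0.23) or without the second (-0.27). Sulf2, a sulfatase that frees growth factors from heparan sulfate, rose from 1.68 and 1.78 to 5.39 and 5.01 FPKM (1.70, edgeR adjusted p 8.38e-07), and Adamts1, a protease that binds VEGF-A, rose by 0.55 on the log2 scale (edgeR adjusted p 0.000279). The co-receptor Nrp1 fell from 32.8 and 32.9 to 19.0 and 21.6 FPKM (-0.66, edgeR adjusted p 3.47e-06), whereas Nrp2, at 115 and 105 against 94.0 and 101 FPKM, did not pass (-0.07, edgeR adjusted p 0.309), although it was called lower with library size alone, in both FPKM fits and in TPM, down to -0.32. The receptor Kdr had 0, 1, 1 and 10 counts in the 2 DMSO and then the 2 risperidone libraries, and Flt1 stood at 1.21 and 1.34 FPKM with DMSO and 0.43 and 0.62 FPKM with risperidone, under the mean needed for the test.

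Serpinf1 encodes PEDF, a secreted serpin that restrains vessel growth and promotes lipolysis. It stood at 97.0 and 95.6 FPKM with DMSO, from 2158 and 2067 counts, and at 86.8 and 92.0 FPKM with risperidone, from 1922 and 2010 counts. Both risperidone libraries were slightly lower in FPKM, and the distance between them was larger than the distance from the higher one to the nearest DMSO library. With TMM scaling the log2 fold change was -0.01 with a standard error of 0.0485. It was -0.05 without the second risperidone library and -0.25 in TPM, the 1 alternative of 14 in which it passed the threshold and one in which the median of all genes was -0.22. Against Serpinf1 in the same library, a ratio that needs no scaling between libraries, Agt was 6.42 and 6.78 with DMSO and 1.10 and 1.21 with risperidone. The same ratio for Vegfa was 0.271 and 0.302 with DMSO and 0.425 and 0.388 with risperidone, and for Nampt it was 0.801 and 0.835 with DMSO and 0.809 and 0.756 with risperidone. The first pair of ratios did not overlap between treatments, nor did the second, and the third did.

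Of the 11 genes listed as PEDF receptors or as other serpins, 7 were tested, of which 6 rose and 1 fell, beside 32.1% and 32.2% of all genes tested, with a median log2 fold change of 0.68. Rpsa, a ribosomal protein that also serves as a laminin receptor, rose from 749 and 753 to 1524 and 1365 FPKM (1.04, edgeR adjusted p 1.62e-07). Pnpla2, which encodes adipose triglyceride lipase and binds PEDF, rose by 0.23 on the log2 scale (edgeR adjusted p 0.00164) but was at -0.01 in TPM. Lrp6, a Wnt co-receptor, fell by 0.66 on the log2 scale (edgeR adjusted p 3.88e-06). Serpinb6a, an intracellular serpin, rose by 0.68 on the log2 scale (edgeR adjusted p 6.71e-07). The difference of Serpinf1 was smaller than its standard error. The count of 6 genes higher in its list was 4 in TPM and where a mean of 5 FPKM was required. It was 5 with no filter, library size alone, both FPKM fits, the replicate block and the length and GC offsets. Serpine2 was not called without the first DMSO library (0.60).

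**Figure D2:**
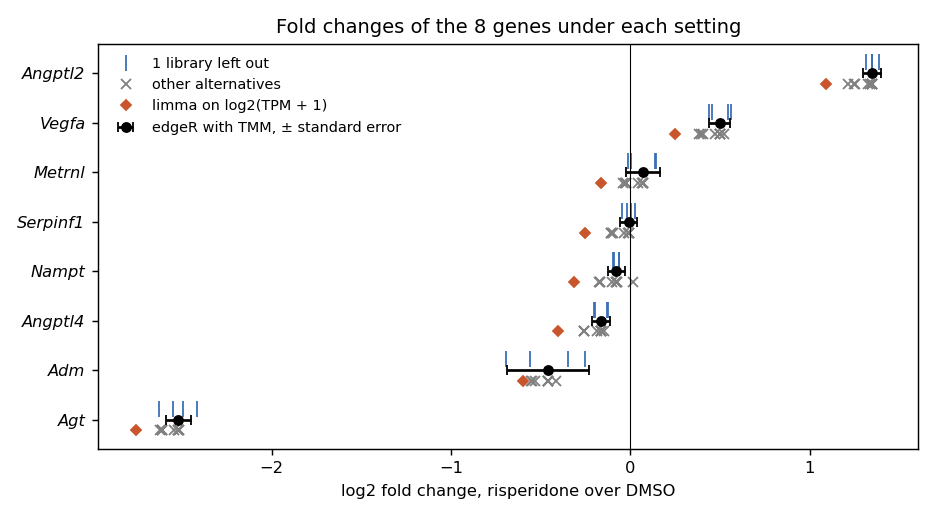
Log2 fold change of the 8 genes, risperidone over DMSO. Black points with bars are the edgeR fit ± its standard error, blue ticks are fits with 1 library left out, orange diamonds are limma on log2(TPM + 1) and grey crosses are the other alternatives. Agt stays between -2.76 and -2.42 and Angptl2 between 1.09 and 1.38, while Serpinf1, Nampt and Metrnl lie on both sides of 0.

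Adm encodes adrenomedullin, a peptide that widens vessels, and was the scarcest of the 8. It stood at 3.04 and 3.53 FPKM with DMSO and at 2.56 and 1.90 FPKM with risperidone. The counts behind these values were 62 and 70 with DMSO, with exact 95% Poisson intervals of 47.5 to 79.5 and 54.6 to 88.4, and 52 and 38 with risperidone, with intervals of 38.8 to 68.2 and 26.9 to 52.2, which cover counting error only. Both risperidone libraries were lower, but the intervals of the first DMSO library overlapped those of both risperidone libraries, and the second DMSO library overlapped the first risperidone library. The log2 fold change was -0.46 with a standard error of 0.230, and it ranged from -0.70 to -0.25 over the fits that left out 1 library, with -0.25 without the second and -0.70 without the first risperidone library. It was below 0 in all 13 alternatives that tested it and passed the threshold in 4 of them, both FPKM fits, the TPM fit and the fit without the first risperidone library. Adm (chr7:110627657-110629820, plus strand) overlaps the noncoding RNA gene Gm28863, which is in no row of the table.

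Of the 16 further genes in the adrenomedullin list, 5 were tested, of which 1 rose and 4 fell, beside 32.1% and 32.2% of all genes tested, with a median log2 fold change of -0.41. The count higher was 2 with no filter and 0 in TPM. Calcrl, the receptor that binds adrenomedullin together with a RAMP protein, fell from 4.14 and 3.72 to 2.12 and 2.53 FPKM (-0.66, edgeR adjusted p 0.000828). The RAMP genes were low, with Ramp1 and Ramp2 at most 0.08 FPKM in any library and Ramp3 at 0.51 and 0.29 FPKM with DMSO and 1.11 and 1.09 FPKM with risperidone. Pam, the enzyme that amidates the peptide, fell by 0.24 on the log2 scale (edgeR adjusted p 0.000941), and with Furin and Pcsk7 these were the 3 processing enzymes tested. Crcp, a component of RNA polymerase III that was first described as a partner of the related receptor for CGRP, rose by 0.41 on the log2 scale (edgeR adjusted p 0.00197), and it did not pass in TPM.

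Nampt makes nicotinamide mononucleotide in the salvage of NAD and is also secreted, under the name visfatin. It stood at 77.7 and 79.8 FPKM with DMSO, from 5615 and 5595 counts, and at 70.2 and 69.6 FPKM with risperidone, from 5041 and 4913 counts. The treatments did not overlap in FPKM. The log2 fold change was -0.08 with a standard error of 0.0459 with TMM scaling, -0.06 without the second risperidone library, -0.31 in TPM and 0.02 with offsets for transcript length and GC content, so it was below 0 under every scaling and above 0 only with those offsets. It passed the threshold in 4 of the 14 alternatives, library size alone and the fits to FPKM with either pseudocount and to TPM, in which the median of all genes was also below 0. Nampt (chr12:32820335-32853369, plus strand) overlaps the noncoding RNA gene Gdap10, which is in no row of the table. Among 23 genes of NAD synthesis and use, 14 were tested, of which 3 rose, 5 fell and 6 did not pass, beside 32.1% and 32.2% of all genes tested, with a median log2 fold change of 0.06. The count higher was 1 with library size alone, in both FPKM fits and in TPM. Nnmt, which methylates nicotinamide and so removes it from salvage, fell from 51.6 and 53.0 to 31.6 and 26.6 FPKM (-0.75, edgeR adjusted p 1.07e-05). The deacylase gene Sirt2 rose by 0.49 and its mitochondrial relative Sirt4 fell by 0.65 on the log2 scale (edgeR adjusted p 8.23e-06 and 0.00182). Nmnat1, which makes NAD in the nucleus, fell by 0.67 on that scale (edgeR adjusted p 0.0313) and Nadsyn1, which makes NAD by another route, rose by 0.45 (edgeR adjusted p 0.0268), and these 2 lost the call in 5 and 8 of the 14 alternatives. Nmnat1 was not called without the first DMSO (-0.73), the second DMSO (-0.61) or the second risperidone library (-0.51), and Nadsyn1 was not called without the first DMSO (0.30) or the first risperidone library (0.32).

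Metrnl encodes meteorin-like, a factor that adipose tissue and muscle secrete on exercise and cold. It stood at 8.77 and 8.04 FPKM with DMSO, from 335 and 298 counts, and at 8.66 and 7.83 FPKM with risperidone, from 329 and 293 counts. The treatments overlapped in FPKM, where the libraries of 1 treatment differed by more than the treatments did. In TPM they did not overlap, at 18.2 and 16.5 with DMSO and 15.9 and 14.9 with risperidone. The log2 fold change was 0.07 with a standard error of 0.0951, it was 0.15 without the second risperidone library and -0.16 in TPM, and it was above 0 in 8 and below 0 in 6 of the 14 alternatives. Its relative Metrn, a factor of glial and axon growth, rose from 20.5 and 20.1 to 30.1 and 28.8 FPKM (0.64, edgeR adjusted p 7.06e-06), and Kit, a receptor of the Metrnl protein, had 0 counts in 3 libraries and 3 counts in the second risperidone library. Metrnl lies at chr11:121702427-121717389 on the plus strand and Serpinf1 at chr11:75410029-75422623 on the minus strand.

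By FPKM, a level per length, the order with DMSO was Agt, Angptl4, Serpinf1, Nampt, Vegfa, Angptl2, Metrnl and Adm. With risperidone it was Angptl4, Agt, Serpinf1, Nampt, Angptl2, Vegfa, Metrnl and Adm, so 2 neighbouring pairs had changed places. The neighbours Agt and Serpinf1 came close under risperidone, where the lower Agt library stood at 95.7 and the higher Serpinf1 library at 92.0 FPKM, but they did not overlap, and no other neighbours did in either treatment. The 8 genes summed to 1083 and 1101 FPKM with DMSO and to 538 and 550 FPKM with risperidone. Agt made up 57.5% and 58.8% of that sum with DMSO and 17.8% and 20.3% with risperidone. Without Agt the sum was 460 and 453 FPKM with DMSO and 442 and 438 FPKM with risperidone.

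**Figure D3:**
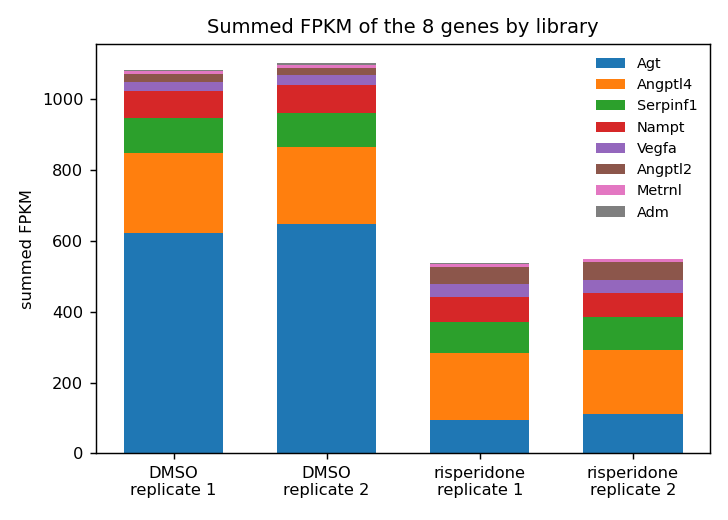
Summed FPKM of the 8 genes in each library, with 1 colour per gene. The sum is 1083 and 1101 FPKM with DMSO and 538 and 550 FPKM with risperidone, and the part below the orange segment, Agt, accounts for nearly all of the difference.

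Across the receptor and receptor partner genes of the 6 systems, 33 were listed, 30 were in the table and 13 had a mean of at least 1 FPKM. Of those 13, 6 rose and 5 fell by edgeR's test, beside 32.1% and 32.2% of all genes tested, and on log2(TPM + 1) 2 were called higher and 7 lower. The 17 others in the table were under that mean, among them the defining vascular receptors Kdr, Flt4, Tek and Tie1 and the angiotensin receptor Agtr1a, all at or under 0.26 FPKM in every library. Mtus1, whose product interacts with the type 2 angiotensin receptor, was the weakest of the 5 that fell (-0.18, edgeR adjusted p 0.0300), and lost the call in 7 of the 14 alternatives, including the fits without the first DMSO (-0.20), the second DMSO (-0.17) and the first risperidone library (-0.15).

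**Figure D4:**
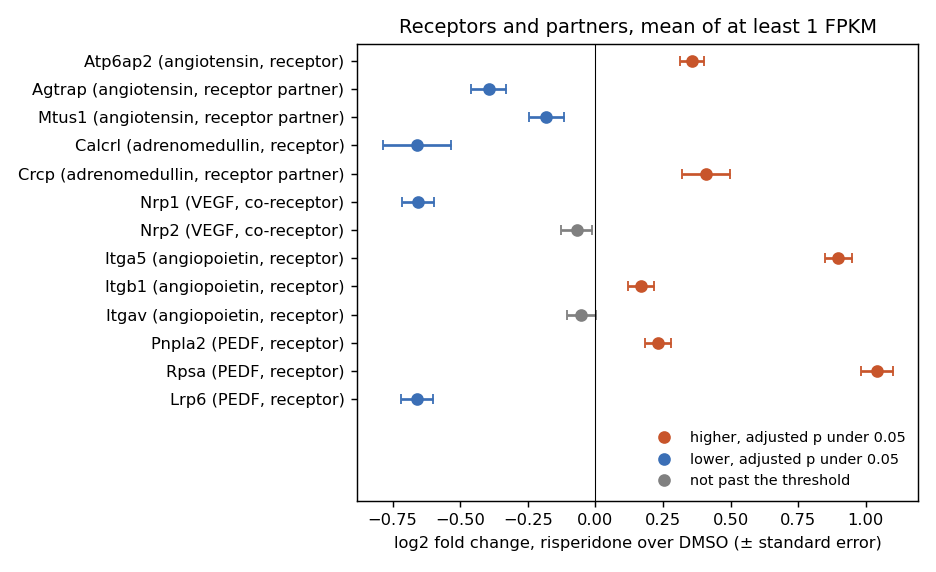
Log2 fold change, risperidone over DMSO, with its standard error, for the 13 receptors and receptor partners with a mean of at least 1 FPKM, orange for higher, blue for lower and grey for not past the threshold in edgeR's test. Rpsa at 1.04 and Itga5 at 0.90 are the highest, and Calcrl, Lrp6 and Nrp1 at -0.66 are the lowest.

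Other secreted adipokines and vascular factors were listed to set the 8 genes among their kind. Of 57 other adipokines and adipokine receptors, 22 were tested, of which 9 rose, 9 fell and 4 did not pass, beside 32.1% and 32.2% of all genes tested, with a median log2 fold change of 0.16, and the count higher was 4 in TPM. Saa3, an acute-phase protein of inflamed fat, fell from 917 and 1033 to 148 and 138 FPKM (-2.66, edgeR adjusted p 2.84e-09), Lcn2, a siderophore-binding lipocalin, fell by 1.47, and Ccl2, which attracts monocytes, fell by 1.18 on the log2 scale (edgeR adjusted p 1.13e-08 and 5.62e-07). Inhba, which encodes the activin A subunit, rose from 0.79 and 1.22 to 2.99 and 2.63 FPKM (1.64, edgeR adjusted p 9.03e-05), and Apln, the ligand of a receptor close to that of angiotensin, fell by 0.88 on the log2 scale (edgeR adjusted p 7.73e-06). Of 48 other vascular factors, 28 were tested, of which 13 rose, 10 fell and 5 did not pass, beside 32.1% and 32.2% of all genes tested, with a median log2 fold change of 0.18, and the count higher was 8 in TPM. Over the 26 with a mean of at least 1 FPKM in both treatments, 12 rose and 9 fell. Cyr61, a matricellular protein of vessel growth, rose by 2.16 on the log2 scale (edgeR adjusted p 5.12e-09), Npr3, the clearance receptor of natriuretic peptides, rose by 1.78, and Ednra, an endothelin receptor, fell by 1.51 (edgeR adjusted p 1.13e-08 and 1.53e-07). Ctgf, at 0.59 and 0.53 FPKM with DMSO and 1.79 and 1.90 FPKM with risperidone, and Sema3a, at 1.94 and 2.13 FPKM with DMSO and 0.76 and 0.78 FPKM with risperidone, reached the mean of 1 FPKM only through the treatment in which they were higher, so their differences are given as values.

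Some of the 8 genes are known targets of shared regulators, and lists for 3 such regulators were counted. Of 26 tested genes of the hypoxia-inducible factor pathway, which can induce Vegfa, Angptl4 and Adm, 5 rose, 13 fell and 8 did not pass, beside 32.1% and 32.2% of all genes tested, with a median log2 fold change of -0.13, and 3 rose when a mean of 5 FPKM was required. The 13 were 9 targets and 4 regulators, Egln1, Egln2, Vhl and Hif1an, which are inhibitors of the pathway, so the count has no single direction. Hif1an was not called with DESeq2 (-0.18), with the length and GC offsets (-0.11), or without the first (-0.15) or the second DMSO library (-0.21). Ddit4, Ankrd37, Kdm3a and Ak4 fell by 1.93, 1.59, 0.90 and 0.87 on the log2 scale among the targets (edgeR adjusted p 5.85e-09, 4.16e-06, 1.36e-07 and 7.80e-06), and Pfkfb3, Ero1l, P4ha2 and Lox rose by 0.84, 0.48, 0.46 and 0.42 (edgeR adjusted p 1.76e-05, 1.55e-05, 1.34e-05 and 1.78e-05). Ndrg1, counted among the 5, stood at 0.27, 0.18 and 0.22 FPKM in 3 libraries and at 12.5 FPKM in the second risperidone library, through which alone it reached the mean of 1 FPKM, and its log2 fold change went from 4.89 to 0.09 without that library. Over the 25 genes that reached that mean in both treatments, 4 rose and 13 fell. Of 18 tested genes of the PPAR pathway, which can induce Angptl4, 5 rose, 7 fell and 6 did not pass, beside 32.1% and 32.2% of all genes tested, with a median of -0.05, and in TPM 3 rose and 11 fell. The fatty acid carrier Fabp4 fell by 1.09, the carnitine transferase Cpt1a by 0.64 and the carnitine carrier Slc25a20 by 0.61, while Acot1 rose by 1.07 and Rxrb by 0.58 on the log2 scale (edgeR adjusted p 1.64e-05, 2.74e-06, 0.000139, 0.000350 and 1.96e-05). Of 17 tested genes of the glucocorticoid receptor, which can induce Agt, 6 rose, 9 fell and 2 did not pass, beside 32.1% and 32.2% of all genes tested, with a median of -0.19. The 9 were 7 targets and 2 regulators, Nr3c1 and Hsp90aa1, and the 6 were all targets, so the targets moved both ways. The phosphatase gene Dusp1 fell by 2.53 and the metallothioneins Mt1 and Mt2 by 1.14 and 1.02, while Lpin1 rose by 1.01 on the log2 scale (edgeR adjusted p 1.11e-08, 4.36e-08, 8.93e-08 and 7.79e-08). Errfi1, Klf9, Sgk1, Per1 and Tsc22d3, the other targets that rose, did so by 0.91, 0.70, 0.63, 0.40 and 0.33 on that scale. Over all lists, each gene counted once, 162 of 288 genes were tested, of which 58 rose (35.8%), 66 fell (40.7%) and 38 did not pass, beside 32.1% and 32.2% of all genes tested. Over the 157 with a mean of at least 1 FPKM in both treatments, 56 rose and 65 fell. Without the second risperidone library 59 of the 162 were called higher and 64 lower.

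For each of the 8 genes, the profiles most like it over the 4 libraries were sought by the distance between centred log2 CPM values, as a description. The nearest to Agt were Dusp1 and Elmo1, at distances of 0.122 and 0.129, with Dusp1 at 32.2 and 32.6 FPKM with DMSO and 4.55 and 5.96 FPKM with risperidone. The nearest to Angptl2 were Crim1 and Aifm2, at 0.0180 and 0.0590, and the nearest to Vegfa were Sik1 and Smpd2, at 0.0150 and 0.0237. Agt had the most distant neighbours of the 8, while those of Nampt, Csnk1g2 and Vps25, stood at 0.00734 and 0.0134. With 4 libraries in 2 groups such a distance reflects mostly the one difference between treatments.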

How the data were processed

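Differentiated 3T3-L1 cells were sequenced in 4 libraries, 2 per treatment, on MGISEQ-2000. The authors deposited 1 table with an estimated count (expected count), FPKM and TPM for each gene and library; the submitters' notes name Bowtie2, RSEM and DESeq2 with no versions and the build GRCm38.p6, and whether counting used strand is not given in the sources used here. The FPKM values are the authors' own, per the paper from their DC.TOM platform. The TPM values deposited by the authors sum to the same total in every library. Estimated counts, of which 91.2% to 91.7% were exactly whole, were rounded.

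Genes whose mean over the libraries reached 1 FPKM entered the main fit, made with edgeR 4.0.16 under R 4.3.3 (TMM, quasi-likelihood F-test, two-sided, Benjamini-Hochberg adjustment over 10243 genes, threshold 0.05), since the counts allow a count model; the study's methods do not describe the model behind its calls, and DESeq2, named in the notes, was run as an alternative. TMM factors were 1.03, 1.03, 0.963 and 0.973. Each p-value measures the spread between libraries pooled from 3 cultures, and an exact permutation test of 2 against 2 could not reach 0.05, so none was made. The fitted coefficient of variation between such pools was 0.0468, and the variation between single cultures was not measured. Alternatives were no filter, a mean of at least 5 FPKM, DESeq2 1.42.0, its size factors in edgeR (RLE), library size alone, limma 3.58.1 on log2(FPKM + 1), log2(FPKM + 0.1) and log2(TPM + 1), the replicate number as a block, and leaving out each library; offsets for length and GC content were added after seeing the data.

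The 8 genes and the lists were chosen with earlier results of these data known. Listed genes were matched by symbol, 331 of 361 list entries being in the table. Other genes named are, by rule, up to 5 called genes per list with the largest change, every receptor or partner that reached that mean, and the 2 nearest profiles of each of the 8 genes, with Lpl, Vegfc, 8 genes of the hypoxia list, further genes of the glucocorticoid list, Ralgps1, the scarce receptors, renin and converting enzyme genes and the markers added after their values were seen. Sequences come from RefSeq's promoter table (GRCm38.p6, the build named in the notes), which matched 7 of the 8 genes. Some listed genes that the rule takes in are not reported here by name.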

Additional observations from a re-analysis of the deposited data

How the results depend on the processing

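The 8 genes were chosen on this contrast, so their ranges are a description. Over 14 alternatives the log2 fold change of Agt lay between -2.76 and -2.42, of Angptl2 between 1.09 and 1.38, of Vegfa between 0.25 and 0.56 and of Angptl4 between -0.40 and -0.12. Fits with 1 library left out gave 2666 to 3310 genes higher and 2725 to 3350 lower over all genes tested. With limma on log2(TPM + 1), which changes the values, their scaling and the model together, the calls were 1536 higher and 5292 lower, of which 22.5% were higher against 49.9% with TMM, and 34 listed genes were higher against 58; with library size alone, which changes only the scaling, there were 2500 higher and 4092 lower and 37.9% of the calls were higher, and on log2(FPKM + 1) and log2(FPKM + 0.1) it was 37.8% and 37.9%. In TPM the log2 fold changes of Itgb1 and Pnpla2 turned to -0.0696 and -0.00788. FPKM summed to 482767 and 487207 with DMSO and to 546060 and 525448 with risperidone, while the TPM sums were equal. After subtracting each fit's own median, Agt stood at -2.52 with TMM and at -2.53 in TPM. On that footing Vegfa stood at 0.499 and 0.472 and Angptl2 at 1.35 and 1.31. Adm, which moved most of the 8 genes, stood at -0.459 and -0.376. Why the FPKM sums differed was not tested. The replicate block gave 3292 higher and 3321 lower genes; the deviations of same-numbered libraries correlated at -0.0622 over 10243 genes, so the numbers were not shown to pair the libraries. Counts were lowest for Adm, with 38 to 70 per library and the largest standard error of the 8 genes, 0.230, and receptors under 1 FPKM were not tested.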
